A study of Homo sapiens with 4 samples.

Results

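The genes described here encode complement components and complement regulators, namely *C3*, *CFB*, *CFI*, *C1R*, *C1S*, *SERPING1*, *CD46*, *CD55* and *CD59*. They were chosen by name, as the rows of the deposited table whose gene name is one of these 9. Of the 9, 5 had a row (*C3*, *C1S*, *CD46*, *CD55* and *CD59*), among 6828 genes in all. The other 4 have no row among those analysed here and are given no value: *CFB* (factor B), *CFI* (factor I, which cleaves C3b), *C1R* (the protease that activates C1s) and *SERPING1* (C1 inhibitor). RNA-seq was carried out in A549 cells, a human lung adenocarcinoma line, 72 h after lentiviral infection. One group received control shRNA (shctrl) and the other shRNA against the long noncoding RNA USP2-AS1 (shUSP2-AS1), from the same vector, with 2 libraries each. Which USP2-AS1 hairpin was sequenced is not given in the sources used here. The table holds only genes below an adjusted p of 0.05 in the authors' own comparison, so that a listed gene differed between the groups is no result of its own, and a missing row says neither that a gene was silent nor that it was unchanged.

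Complement is a cascade of plasma proteases and opsonins that is made largely by the liver, but also locally by epithelial cells, those of the lung included. The C1 complex starts the classical pathway, factor B and factor D drive the alternative pathway, and all pathways meet at the cleavage of C3, after which C5 and the later components form the membrane attack complex. Host cells protect themselves with membrane regulators that inactivate C3b and C4b (CD46), take C3 convertases apart (CD55) or block the last step of the attack complex (CD59). CD55 and CD59 are held in the membrane by a glycosylphosphatidylinositol (GPI) anchor, and CD46 by a transmembrane segment.

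All 3 membrane regulators had higher transcript levels after USP2-AS1 knockdown, by 2.86-fold for *CD59*, 1.92-fold for *CD46* and 1.79-fold for *CD55*. The component *C1S* was higher by 1.55-fold, and *C3* was 1.46-fold higher in shctrl cells. In these bulk libraries, fewer cells with a transcript and less of it per cell cannot be told apart. In the text, a gene rose or fell where its Benjamini-Hochberg adjusted p from limma was below 0.05, and it was called where the log2 fold change was also at least 1 in size. By the first rule 4 of the 5 genes rose, where 50.6% of the 6812 genes tested did, and 1 fell (*C3*), where 49.4% of all genes tested did. By the second, *CD59* was called higher, where 16.1% of all genes tested were. No gene of the 5 was called lower by limma, where 13.5% of all genes tested were, and edgeR and DESeq2 also called 0 lower. *C3* passed the p threshold of 0.05, adjusted (6.59e-08 from limma) or not, and missed only the fold threshold, at -0.54. The median log2 fold change was 0.84 over the 5 genes and 0.19 over all genes tested. The latter falls where the table holds few genes, and it was 0.07 with RLE scaling and -0.16 over genes with at least 10 reads in every library.

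Sequences upstream of the gene start are shown for the 3 regulators, because they rose together. They were taken from RefSeq (GRCh38.p14), which matched 6 of the 9 genes; *C3*, *C1S* and *SERPING1* had no entry. Each line gives the 250 bases before the start, 5′ to 3′ on the strand of the gene, with capitals marking a GAS site (gamma-activated site, TTCNNNGAA), the kind of site that STAT factors bind.
CD59 (chr11:33736480-33736729, minus strand): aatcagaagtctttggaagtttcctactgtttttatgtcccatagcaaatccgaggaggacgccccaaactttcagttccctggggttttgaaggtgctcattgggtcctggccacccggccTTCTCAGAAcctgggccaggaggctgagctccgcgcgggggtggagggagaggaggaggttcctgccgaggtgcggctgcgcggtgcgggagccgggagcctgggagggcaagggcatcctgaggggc
CD46 (chr1:207751804-207752053, plus strand): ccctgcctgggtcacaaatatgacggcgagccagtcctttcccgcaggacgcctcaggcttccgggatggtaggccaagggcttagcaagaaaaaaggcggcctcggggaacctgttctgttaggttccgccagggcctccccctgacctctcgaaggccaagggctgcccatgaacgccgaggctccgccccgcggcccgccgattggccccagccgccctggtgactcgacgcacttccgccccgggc
CD55 (chr1:207321428-207321677, plus strand): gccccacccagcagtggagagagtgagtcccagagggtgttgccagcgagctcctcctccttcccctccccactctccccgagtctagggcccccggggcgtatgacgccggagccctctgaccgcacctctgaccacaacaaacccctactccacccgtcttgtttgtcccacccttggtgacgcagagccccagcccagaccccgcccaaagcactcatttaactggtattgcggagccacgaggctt
The starts used for *CD59* and *CD46* are those in the deposited table, and the one for *CD55* lies 146 bases downstream of the table's start. GC made up 62% of the *CD59* bases, 67.6% of the *CD46* bases and 64% of the *CD55* bases. The *CD59* stretch holds TTCTCAGAA, which begins 128 bases before the start and, like every match of TTCNNNGAA, reads as a GAS site on both strands. Of 35116 RefSeq windows of 300 bases (250 before and 50 after the start), 7.66% hold such a site. The windows of *CD46* and *CD55* hold none of the 5 motifs searched on both strands, which were GAS, the interferon-stimulated response element, the NF-kB site, the C/EBP site TTGCNNAA and the E-box CACGTG. RefSeq gives other starts for *CD59*, and the window 13530 bases downstream of the table's start holds 2 C/EBP matches, a motif found in 10.5% of all windows. These matches describe letters and do not show binding.

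Of the membrane regulators, *CD59* (ENSG00000085063) encodes protectin, which binds C8 and C9 and stops the attack complex from forming a pore. It lies on chromosome 11 from 33703010 to 33736479 of GRCh38. Its normalized read count (reads over the library's size factor) was 2620 and 2341 in control libraries, against 6923 and 7263 after knockdown. Both shUSP2-AS1 libraries were far above both shctrl libraries. Control libraries averaged 2480 ± 197 and knockdown libraries 7093 ± 241 (SD, n = 2 each), and the log2 fold change on the log2(value + 1) scale was 1.52 (95% interval 1.40 to 1.64, adjusted p = 1.66e-13 from limma). Of all genes tested, 92.2% had a lower log2 fold change than *CD59*. In GENCODE release 44 its exons share 629 bases with ENSG00000284969, a protein-coding gene on the same strand, so a small part of its reads could belong to either.

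*CD46* (ENSG00000117335) encodes membrane cofactor protein, with which factor I cleaves C3b and C4b. It lies on chromosome 1 from 207752054 to 207795513. The shctrl libraries had normalized read counts of 2912 and 2876, and the shUSP2-AS1 libraries had 5600 and 5511. The replicates of *CD46* were the closest of the 5 genes in relative terms, and the groups did not overlap. The means were 2894 ± 25.7 (SD, n = 2) and 5555 ± 63.0 (SD, n = 2). The log2 fold change was 0.94 (95% interval 0.84 to 1.04, adjusted p = 1.10e-11 from limma), so the interval spans the threshold of 1 and *CD46* was not called. Its exons share 797 bases with MIR29B2CHG on the opposite strand, and whether strand was used in counting is not given in the sources used here. With upper quartile scaling it was called, at 1.00.

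*CD55* (ENSG00000196352) encodes decay-accelerating factor, which splits the C3 and C5 convertases. It lies on the same strand of chromosome 1, from 207321532 to 207386804, with 365249 bases and no listed gene between its end and the start of *CD46*. Control libraries had normalized read counts of 724 and 697, against 1165 and 1383 after knockdown. The shUSP2-AS1 libraries were both higher, and further apart from each other than the shctrl libraries were. The means were 710 ± 19.1 (SD, n = 2) and 1274 ± 154 (SD, n = 2), and the log2 fold change was 0.84 (95% interval 0.67 to 1.01, adjusted p = 2.80e-08 from limma). *CD55* was the regulator with the lowest read count, with 634 to 1571 reads per library.

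Of the components, *C3* (ENSG00000125730) encodes the protein at which the pathways meet, and lies on chromosome 19 from 6677704 to 6730562. Its normalized read count was 6009 and 5593 with control shRNA, against 4147 and 3808 after knockdown. *C3* was the only one of the 5 genes that was lower in both shUSP2-AS1 libraries. The means were 5801 ± 295 (SD, n = 2) and 3978 ± 240 (SD, n = 2). The log2 fold change was -0.54 (95% interval -0.66 to -0.43, adjusted p = 6.59e-08 from limma), near the median of -0.68 over all genes that were lower. Its exons share 1357 bases with the same-strand lncRNA ENSG00000276980 in GENCODE release 44.

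*C1S* (ENSG00000182326) encodes the protease of the C1 complex that cleaves C4 and C2, and lies on chromosome 12 from 6988259 to 7071032. The shctrl libraries had 2571 and 2295, and the shUSP2-AS1 libraries had 3627 and 3928. The groups did not overlap, and the means were 2433 ± 196 (SD, n = 2) and 3777 ± 213 (SD, n = 2). The log2 fold change was 0.64 (95% interval 0.51 to 0.77, adjusted p = 3.28e-08 from limma), near the median of 0.71 over all genes that were higher. The interval of *C1S* overlaps *LPCAT3* on the opposite strand by 30219 bases, but their exons share 0 bases in GENCODE release 44; 229 exon bases are shared with the same-strand gene ENSG00000290146. None of the 5 genes had overlapping groups, a property of 100% of the genes tested to 3 digits (6811 of 6812).

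**Figure D1:**
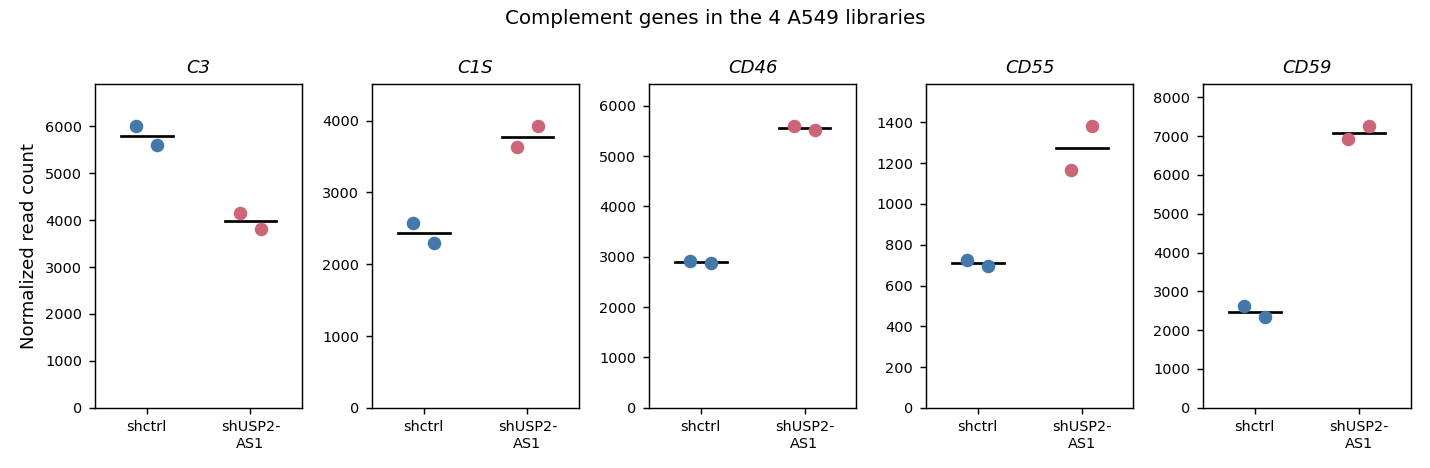
Normalized read count (y axis, from 0, a separate scale for each gene) of the 5 listed complement genes in the 2 shctrl and 2 shUSP2-AS1 libraries. Points are libraries and lines are group means. *C3* was lower in both shUSP2-AS1 libraries, and *C1S*, *CD46*, *CD55* and *CD59* were higher in both.

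**Figure D2:**
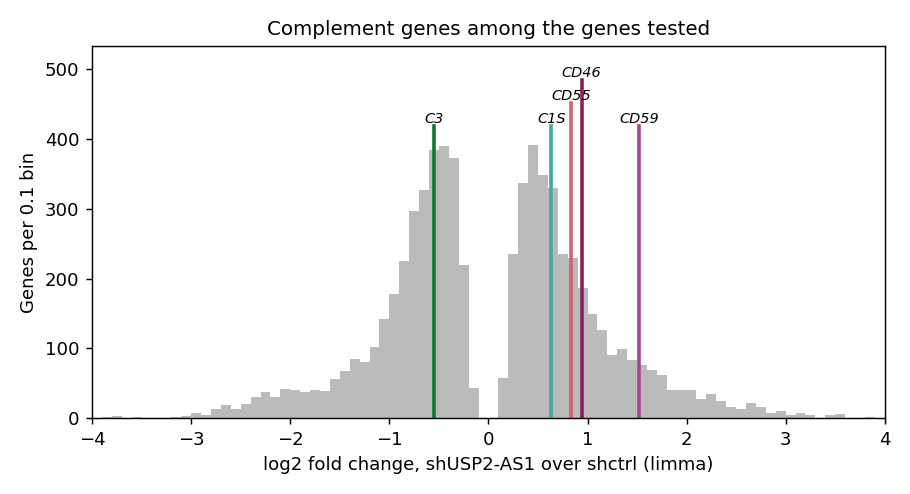
Histogram of the log2 fold changes of the genes tested, in bins of 0.1 (x axis, shown from -4 to 4; y axis, number of genes), with a line for each complement gene. The gap around 0 is where genes would lie that did not pass the authors' threshold, and *CD59* at 1.52 lies furthest out of the 5.

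Divided by the gene length that the authors gave, the counts allow levels of different genes to be set side by side. In shctrl cells *C3* had the highest level per kilobase, 699 ± 35.5 (SD, n = 2), followed by *C1S* with 376 ± 30.3, *CD46* with 332 ± 2.95, *CD59* with 235 ± 18.7 and *CD55* with 123 ± 3.32. In shUSP2-AS1 cells *CD59* came first with 672 ± 22.8 (SD, n = 2), followed by *CD46* with 638 ± 7.23, *C1S* with 585 ± 32.9, *C3* with 479 ± 28.9 and *CD55* with 222 ± 26.8. With these lengths *C3* went from the first to the fourth place, and *CD59* from the fourth to the first. No neighbours in either order had overlapping libraries, but the nearest, *CD59* and *CD46* in shUSP2-AS1 cells, were 656 and 643 in the first library, a gap smaller than the SD of *CD59*.

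A ratio of 2 genes within a library does not depend on how the libraries were scaled. The summed level per kilobase of *CD46*, *CD55* and *CD59* was 0.978 and 0.998 times that of *C3* in control libraries, against 3.003 and 3.40 times after knockdown. With the authors' gene lengths, the 3 regulators summed were thus about level with *C3* in control cells, where each alone was below it. In the knockdown cells their sum stood well above *C3*, while *CD55* alone, at 222, stayed below *C3* at 479. The shares that follow rest on the same lengths. As a share of the 5 genes together, the regulators made up 39.1% ± 0.597 in control libraries, against 59.0% ± 0.580 after knockdown (SD, n = 2 each). The share of *C3* went from 39.6% ± 0.0228 to 18.5% ± 1.45 (SD, n = 2), and that of *C1S* was 21.3% ± 0.620 and 22.5% ± 0.866 (SD, n = 2).
The regulators did not all change by the same factor. The ratio of *CD59* to *CD46*, per kilobase, was 0.742 and 0.672 in shctrl and 1.02 and 1.09 in shUSP2-AS1, with no overlap. The ratio of *CD59* to *CD55* was 1.97 and 1.83 in shctrl and 3.24 and 2.86 in shUSP2-AS1, again with no overlap. The ratio of *CD46* to *CD55* did overlap, with 2.66 and 2.73 in shctrl and 3.17 and 2.63 in shUSP2-AS1. With 2 libraries against 2, a two-sided exact permutation test of such a ratio cannot give a p below 0.333, which is what the regulators over *C3*, *CD59* over *CD46* and *CD59* over *CD55* each gave.

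**Figure D3:**
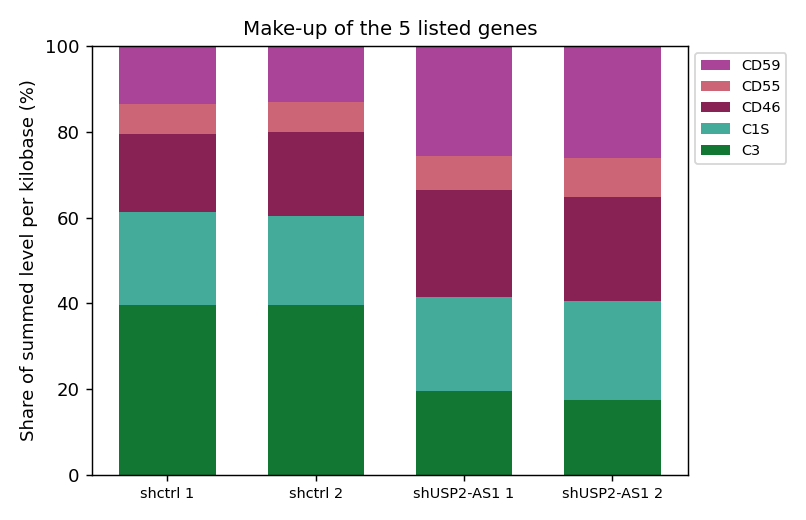
Share of each gene in the summed level per kilobase of the 5 listed complement genes (y axis, percent), one bar per library. The 3 regulators together take 39.1% on average in shctrl and 59.0% in shUSP2-AS1, and *C3* takes 39.6% and 18.5%.

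A list of 54 other complement genes had 15 with a row, of which 7 were called higher (16.1% of all genes tested were), 1 was called lower (13.5% of all genes tested were) and 7 were not called. With at least 10 reads in every library, 5 were called higher and 0 lower, where 930 and 861 of 6583 genes tested were. A gene with few reads needed a large fold change to be listed at all, so its call was in part set by that selection. By adjusted p alone 12 rose and 3 fell, where 50.6% and 49.4% of all genes tested did. The median log2 fold change was 0.96. In the alternative pathway, *CFD* (factor D, the protease that activates factor B) was low and was called lower. Control libraries held 44 and 31 reads of it and knockdown libraries 5 and 16, a log2 fold change of -2.01 (95% interval -2.95 to -1.07, adjusted p = 0.00037 from limma). It was -1.37 without shUSP2-AS1 replicate 1 and -2.64 without shUSP2-AS1 replicate 2. *CFD* averaged 38.3 normalized counts in shctrl and 9.67 in shUSP2-AS1, so it passed the filter on a mean of at least 10 only through shctrl. In the terminal pathway, *C5*, whose cleavage starts the attack complex, fell with a log2 fold change of -0.36 (adjusted p = 5.98e-05 from limma), the same direction as *C3*. No gene of the lists for the classical pathway other than *C1S*, or for the lectin pathway, had a row.

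Among soluble regulators, *VTN* (vitronectin, which keeps the attack complex out of membranes) and *PROS1* (protein S, which binds C4b-binding protein) were called higher. *VTN* had 173 and 207 normalized counts in control libraries, against 462 and 495 after knockdown (adjusted p = 7.46e-09 from limma). *PROS1* had 518 and 487, against 1189 and 1125 (adjusted p = 1.11e-10 from limma). *CLU* (clusterin, which binds the attack complex in solution) rose with a log2 fold change of 0.83, from 11317 and 11370 normalized counts in control libraries to 19876 and 20325. The exons of *VTN* share 329 of 1904 bases with ENSG00000273171 on the same strand. Of other membrane regulators, *THBD* (thrombomodulin) rose with 0.87, and *SUSD4*, which was called at 2.18, had 3 and 8 reads in control libraries, against 29 and 27. Its log2 fold change was 1.51 without shctrl replicate 1 and 2.84 without shctrl replicate 2. Together with *CD46*, *CD55* and *CD59*, these 8 regulators were all higher in shUSP2-AS1 cells, where 50.6% of all genes tested rose. *SUSD4* averaged 5.85 normalized counts in shctrl and 27.1 in shUSP2-AS1, so it passed the filter on a mean of at least 10 only through shUSP2-AS1. Its direction therefore adds nothing to the tally, and all listed genes had been selected on this comparison. On the lists, 9 of 13 soluble and 2 of 4 other membrane regulators had no row, and neither had *CFI* and *SERPING1*.

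Of 12 complement receptors, 7 had a row, of which 6 rose and 1 fell, where 50.6% and 49.4% of all genes tested did, and 3 were called higher, against 16.1% of all genes tested. *ITGAX*, the alpha chain of complement receptor 4, had 87.0 and 97.8 normalized counts in control libraries, against 731 and 721 after knockdown, a log2 fold change of 2.96 (95% interval 2.72 to 3.21, adjusted p = 2.32e-13 from limma). *ITGAM*, the alpha chain of complement receptor 3, was called at 1.48 (adjusted p = 1.64e-07 from limma). Their partner *ITGB2* had no row. Of the C5a receptors, *C5AR2* was called at 1.51 on 10 to 42 reads per library, and *C5AR1* rose with 0.96, which was 1.13 without shctrl replicate 2, 1.095 without shUSP2-AS1 replicate 1 and 1.02 with upper quartile scaling, all past the threshold of 1. *LRP1* rose with 0.84 and *CALR* with 0.36, while *C1QBP*, which binds C1q, fell with -0.55.

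**Figure D4:**
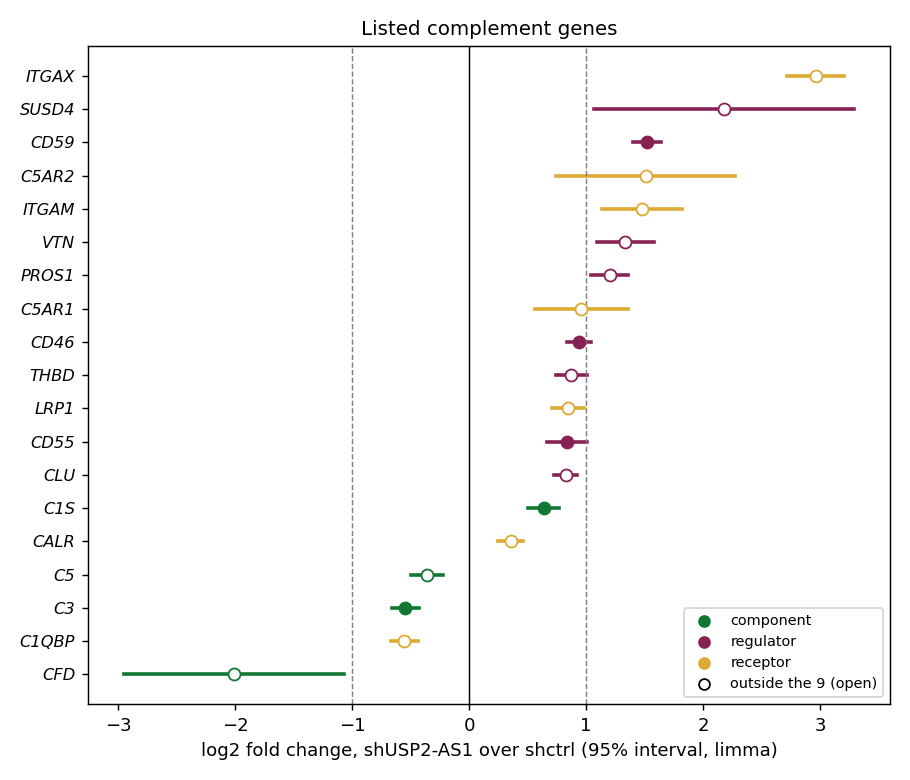
Log2 fold change of the complement genes reported here (x axis, with its 95% interval from limma), coloured as component, regulator or receptor. Filled points are the 5 genes of the text above, open points are other complement genes, and dashed lines mark -1 and 1. All 8 regulators drawn lie above 0, where 50.6% of all genes tested rose, and *CFD*, *C1QBP*, *C3* and *C5* lie below 0. *SUSD4* passed the filter on a mean of at least 10 only through shUSP2-AS1, and *CFD* only through shctrl.

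Genes that serve the regulators or are known to act on complement genes were compared in the same fit. Of 30 genes for GPI anchor synthesis and transfer, the anchor of CD55 and CD59, 12 had a row. Of these, 11 rose and *PIGC* fell (-0.52), where 50.6% and 49.4% of all genes tested did. Of the 12, only *PIGZ*, at 1.24, was called, a share below the 16.1% of all genes tested that were called higher; *PIGS*, of the complex that attaches the anchor, rose with 0.90. Of 25 transcription factors and signalling genes, 11 had a row, 7 rose and 4 fell, near the shares of 50.6% and 49.4% over all genes tested. *STAT2*, which carries interferon signals, rose with 0.72, *STAT3*, which carries interleukin-6 signals, with 0.55, and *CEBPB*, a factor of the acute phase, with 0.32. *IRF7* was called at 3.29, with 9 and 8 reads in shctrl and 94 and 102 in shUSP2-AS1. It averaged 8.74 normalized counts in shctrl, so it passed the filter on a mean of at least 10 only through shUSP2-AS1. The interleukin-6 receptor chains moved apart, as *IL6R* was called at 1.35 and *IL6ST* fell with -0.99. *NFKB2* rose with 0.43, while *RELA* (-0.28), *SP1* (-0.37) and *JAK1* (-0.15) fell. Of 22 acute phase genes, which are often induced together with complement, 3 had a row: *LCN2* was called lower at -3.81, *CP* (ceruloplasmin) was called higher at 1.18 and *FTL* rose with 0.21. Whether any of these genes had a part in the changes of the complement genes was not tested.

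Checks of the libraries bear on all of these values. The targeted gene, USP2-AS1, had 24 and 22 reads with control shRNA, against 2 and 7 after knockdown, which goes with the labels. Its exons share 1142 bases with *USP2*, which had no row, and 232 bases with *THY1*, which had one, both on the opposite strand. Reads recovered on the listed genes were 10772788 to 14120472 per library. Of 8 markers of lung epithelium, 3 had a row, of which *KRT8* and *KRT18* were lower (-0.77 and -1.05) and *KRT19* was higher (0.75) in shUSP2-AS1 cells. None of 11 leukocyte and macrophage markers and none of 4 hepatocyte markers had a row, and of 4 fibroblast markers *COL1A1* had one, at 261 to 293 in shctrl and 530 to 618 in shUSP2-AS1. Because the genes tested had already been selected on this comparison, the adjusted p values are too small.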

How the data were processed

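The authors had poly(A)-selected RNA of 4 A549 cultures sequenced, 2 biological replicates per group. The submitters' processing notes name HISAT2 (2.0.5), featureCounts (1.5.0-p3), DESeq2 (1.20.0) and the build hg38; whether strand was used in counting is not given in the sources used here. For every library the authors deposited 1 signal per gene, its read count over that library's size factor. The deposited table also holds group means and the authors' fold changes and p-values, which were not used. Columns headed scr and sh216 were read as shctrl and shUSP2-AS1, by the name of the table. Every value (100% in each library, within 0.01 of a whole number) gave whole reads, which were used for count tests.

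Genes averaging at least 10 were kept, and their log2(value + 1) was fitted over the whole table with limma (3.58.1, R 4.3.3; eBayes with a trend), leaving out 16 genes and none of the 5 members listed. Called genes had a Benjamini-Hochberg adjusted p below 0.05 over 6812 genes and a log2 fold change of 1 or more in size. Methods were tested on simulated counts in which most genes did not change. The listed genes had been selected for a difference, so that test does not vouch for the p values here. Alternatives were other filters, scalings, a block for the replicate number, a pseudocount of 0.1, edgeR (4.0.16), DESeq2 (1.42.0), no fold threshold and each library left out. Named were all members, called genes of the lists and all listed complement genes, except that 2 genes of the lists are counted but not reported here; the listed but uncalled genes of the other lists, *LPCAT3* and the ratios were added after their values were seen. The members and lists were chosen with earlier results of these data known. With 2 libraries per group, the number of libraries limits the precision. Fold changes on this log scale understate the change of genes with few reads.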

Additional observations from a re-analysis of the deposited data

How the results depend on the processing

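The directions of the 5 complement genes were the same under all 14 alternatives run for each. Log2 fold changes lay between 1.40 and 1.60 for *CD59*, 0.82 and 1.00 for *CD46*, 0.71 and 0.96 for *CD55*, 0.52 and 0.72 for *C1S*, and -0.66 and -0.48 for *C3*. *CD59* was called in each, and upper quartile scaling called *CD46* as well, 2 genes in place of 1. RLE scaling moved the median of all genes by -0.12 and turned the balance of calls over all genes, with 934 higher and 1143 lower, as did the size factors of DESeq2 with 942 and 1140, against 1098 and 922. Without a fold change threshold 4 of the 5 genes were higher and 1 lower, 12 and 3 of the other complement genes, and 3449 and 3362 of all genes. With at least 10 reads in every library *CFD* and *SUSD4* were not tested. Of the other complement genes, 0 were then called lower and 5 higher, against 1 and 7. Genes with few reads depended on single libraries: *CFD* was -1.37 without shUSP2-AS1 replicate 1 and -2.64 without replicate 2, and *SUSD4* was 1.51 without shctrl replicate 1 and 2.84 without replicate 2. *COL1A1* was short of the threshold at 0.96 without shctrl replicate 1 and 0.94 without shUSP2-AS1 replicate 2. It was also short at 0.93 with RLE scaling and 0.94 with the size factors of DESeq2, as was *KRT18* with upper quartile scaling (-0.99). The replicate differences of the groups had a correlation of -0.04 across genes, so no effect shared by a replicate number was seen. Whether libraries of the same number were prepared together cannot be told from this. A fit with the replicate block called 1098 genes higher and 922 lower, with 1 and 0 of the 5 among them. With each number once per group the block leaves the fold changes as they are, so these counts do not bear on shared cultures.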
